A study of Rattus norvegicus with 9 samples.

Results

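The miR-29 family of the rat heart, made of miR-29a, miR-29b and miR-29c, was followed through small RNA libraries from 3 layers of the left ventricular wall. Its members were taken by name: every annotated rat sequence whose entry was called mir-29a, mir-29b or mir-29c, whatever its match class and with the * (minor) strand included. That gave 857 unique sequences, of which 551 belonged to miR-29a, 115 to miR-29b and 191 to miR-29c, out of 31220 rat sequences and 46358 annotated sequences in all. Together they held 62707 of 7631327 annotated reads, between 0.468% and 1.29% of the reads of a library.

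The rats were untreated male Sprague-Dawley animals of 8 months, and no agent or genetic change was used in any group. The left ventricular free wall had been divided into epicardium and endocardium, each cut about 1 mm from its surface, and the midmyocardium between them, so that each layer name stands for a slab of muscle and not for the surface membrane alone. Each of 3 hearts, numbered 6, 7 and 8, gave 1 library per layer, hence 3 libraries in a layer and 9 in total. The design asks whether the layers differ, and the 3 hearts are the replicates.

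MicroRNAs are short RNAs that guide the silencing machinery to messenger RNAs, chiefly through the seed, bases 2 to 8 from the 5′ end. The members of the miR-29 family share 1 seed and are known to repress collagens, elastin, fibrillin and other parts of the extracellular matrix, which is why a fall of miR-29 in the injured heart is linked to fibrosis and the family is called antifibrotic. Each microRNA is cut from a hairpin, and reads that end before or after the annotated ends, or carry added bases, are called isomiRs. None of these libraries measured fibrosis or a messenger RNA target.

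The mature sequences show how close the members are, and they carry the seed in capitals. They were taken from RefSeq (GRCr8), where all 4 hairpin genes and their 7 distinct mature forms were found. The major strands, cut from the 3p arm of the hairpin, read as follows.
rno-miR-29a-3p: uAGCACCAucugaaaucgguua
rno-miR-29b-3p: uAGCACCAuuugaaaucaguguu
rno-miR-29c-3p: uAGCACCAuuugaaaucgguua
The minor strands, cut from the 5p arm, have other seeds.
rno-miR-29a-5p: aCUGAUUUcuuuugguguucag
rno-miR-29b-1-5p: uUUCAUAUggugguuuagauuu
rno-miR-29b-5p: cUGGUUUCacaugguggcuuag
rno-miR-29c-5p: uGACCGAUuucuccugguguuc

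The 3p seed was one and the same in the 3 members, whereas the 4 minor strands had 4 different seeds. Counting positions from 1 at the 5′ end in DNA letters, miR-29a differed from miR-29c by C10T alone. Against miR-29b, miR-29a differed by C10T, G18A, T21G and A22T, and miR-29c by the last 3 of these. Bases 4 to 13, looked up as a string, had the C of miR-29a at position 10 in 53569 and the T of miR-29c in 92 of the 54808 major strand reads named mir-29a. Of the 6189 reads named mir-29c, 6025 had the T and 0 the C. The names had been given by sequence, so this checks the annotation and not the origin of a read. In the mean over libraries 1.06% of the miR-29a reads were listed under more than 1 member name, and these were kept with the first name. Some miR-29b reads were also listed for mir-29c or mir-29a and kept likewise, the largest such class with 27 of 1491 reads.

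The family sits in 2 gene pairs. In GRCr8, Mir29a lies at chr4:60617955-60618042 on the minus strand with its mature 3p form at chr4:60617968-60617989, and Mir29b1 lies 291 bases away at chr4:60618334-60618414 with the mature form at chr4:60618342-60618364. Mir29b2 lies at chr13:109098831-109098911 on the plus strand with the mature form at chr13:109098882-109098904. Mir29c follows 447 bases further at chr13:109099359-109099446, with the mature form at chr13:109099412-109099433. The mature miR-29b is the same from both pairs, so its major strand could not be assigned to either gene.

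Depth limited the minor strands most. Annotated reads ran from 283991 in the midmyocardium of heart 6 to 1428025 in the endocardium of heart 7, and 3 reads corresponded to 2.10 to 10.6 RPM in a library, where 1 RPM is 1 read in 1000000 annotated reads. Intervals and floors given here cover counting error only, since the reads carry no molecular identifiers. Rat entries took 73.8% to 86.1% of the annotated reads, and the 2 lowest shares were those of the endocardium of heart 7 and the epicardium of heart 8, with 80.8% in the latter. The 5 microRNAs fixed as cardiomyocyte markers (miR-1, miR-133a, miR-133b, miR-208 and miR-499) all had reads and none was at 0, with a summed level of 52314 to 105095 RPM in the epicardium, 102639 to 140396 in the midmyocardium and 59465 to 101239 in the endocardium. Under rat entries, markers listed for fibroblasts (3 of 3), smooth muscle (2 of 2) and leukocytes (3 of 3) also had reads. So did those for endothelium (1 of 1) and red cells (2 of 3). The remaining red cell marker, miR-486, had no rat entry in miRBase. The paper reports it among the most highly detected microRNAs of the midmyocardium, through its human entry. Every layer was thus a mixture of cell types. In such tissue fewer cells of a type and less RNA per cell cannot be told apart.

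All 3 members were found in every library, and their order was the same in each, with miR-29a above miR-29c and miR-29c above miR-29b. The level of miR-29a over the 9 libraries was 7451 ± 2322 RPM (SD, n = 9), that of miR-29c 833 ± 202 RPM and that of miR-29b 193 ± 50.2 RPM. By mean level they ranked 21st, 61st and 98th among 437 rat microRNA strands with reads. In terms of ratios, miR-29a had 8.98 ± 1.88 times the reads of miR-29c, and miR-29c 4.38 ± 0.73 times those of miR-29b. These ratios compare reads of different sequences, whose capture in the library was not measured.

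The level of miR-29a in hearts 6, 7 and 8 was 7615, 11425 and 4342 RPM in the epicardium. It was 7476, 7963 and 9819 RPM in the midmyocardium. In the endocardium it was 7312, 4041 and 7069 RPM. Heart 6 was almost level through the wall, heart 7 fell steeply from the outer to the inner layer, and heart 8 was highest in the middle. The midmyocardial values lay just above the endocardial ones with no overlap, while the epicardial values spanned both of the other layers. The means were 7794 ± 3545 (SD, n = 3), 8419 ± 1236 and 6141 ± 1822 RPM from epicardium to endocardium.

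The 2 lowest libraries for miR-29a, the endocardium of heart 7 and the epicardium of heart 8, were the ones with the smallest rat share of reads. On the total of rat reads alone in place of all annotated reads they stood at 5477 and 5374 RPM, still below the 8580 to 13438 RPM of the other libraries. The part of the rat share in this result beyond that rescaling was not tested.

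For miR-29c the epicardium gave 651, 1130 and 835 RPM in hearts 6, 7 and 8. The midmyocardium gave 743, 844 and 1033 RPM. The endocardium gave 1009, 487 and 763 RPM. Heart 6 was highest in the endocardium, heart 7 in the epicardium and heart 8 in the midmyocardium, and the ranges of all layers overlapped. The layer means of 872 ± 242, 873 ± 147 and 753 ± 261 RPM differed by less than their SDs.

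The least abundant member, miR-29b, had 139, 266 and 185 RPM in the epicardium of hearts 6, 7 and 8. It had 155, 215 and 218 RPM in the midmyocardium and 181, 123 and 259 RPM in the endocardium. Hearts 6 and 8 were highest in the endocardium and heart 7 in the epicardium, with overlap of every layer. The means of 197 ± 64.2, 196 ± 35.5 and 188 ± 68.2 RPM were nearly equal.

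**Figure D1:**
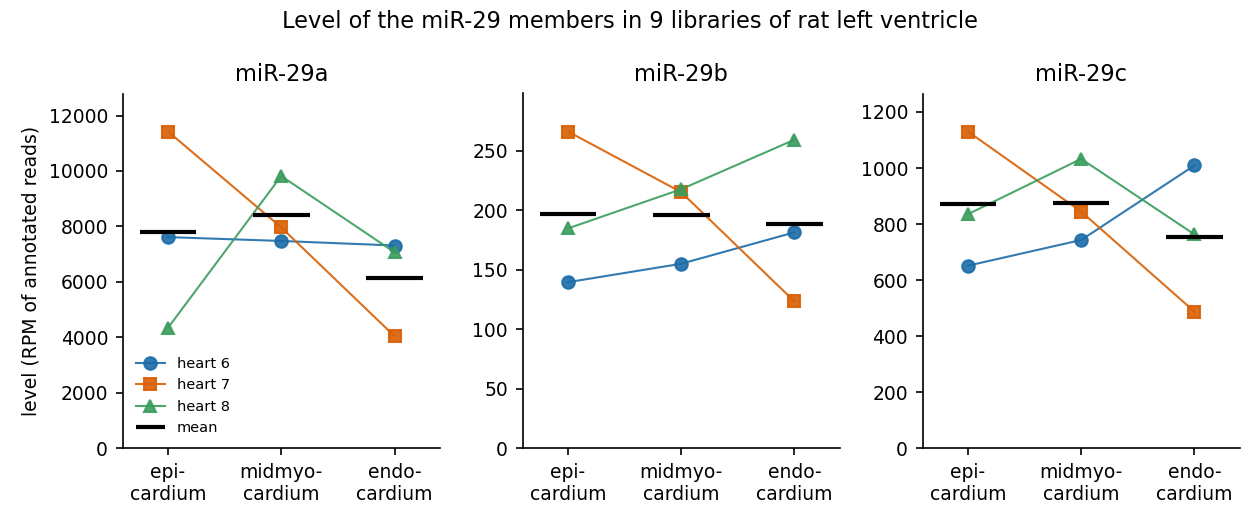
Level of miR-29a, miR-29b and miR-29c in RPM of annotated reads (vertical axes, each from 0) in the epicardium, midmyocardium and endocardium, with 1 point per library, lines joining the layers of a heart and black bars for the mean of 3 hearts. Heart 7 falls from 11425 to 4041 RPM of miR-29a across the wall, while heart 6 stays between 7312 and 7615.

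As a share of the family, miR-29a made up 87.2 ± 2.81% of the reads (SD, n = 9), miR-29c 10.4 ± 2.35% and miR-29b 2.44 ± 0.60%. The epicardium of heart 8 held the lowest miR-29a share, 80.8%, and the epicardium of heart 6 the highest, 90.4%. The 3 midmyocardial libraries lay between 88.1% and 89.0%.

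The minor strands, taken as the reads named *, were rare but present in every library. Summed over the 9 libraries, miR-29a* had 82 reads, miR-29b* 46 and miR-29c* 137. miR-29c*, the most abundant of them although its major strand is not, had 14.9, 14.3 and 10.7 RPM in the epicardium of hearts 6, 7 and 8. It had 21.1, 14.6 and 19.0 RPM in the midmyocardium and 36.5, 18.2 and 17.1 RPM in the endocardium. Every endocardial value lay above every epicardial one. A library held between 2 and 26 reads of a minor strand.

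miR-29a* had 13.8, 14.3 and 8.59 RPM in the epicardium, 7.04, 10.6 and 9.50 RPM in the midmyocardium and 18.3, 7.00 and 9.21 RPM in the endocardium. miR-29b* had 5.32, 7.79 and 2.15 RPM, 7.04, 3.98 and 4.75 RPM, and 18.3, 4.90 and 3.95 RPM in the same order. Both had their highest value in the endocardium of heart 6, and their layers overlapped. The reads of the major strand outnumbered those named * 716 ± 230 times for miR-29a (SD, n = 9), 49.7 ± 19.5 times for miR-29c and 41.0 ± 24.2 times for miR-29b.

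For miR-29b that ratio depended on the naming, because the Mir29b1 hairpin had no entry named *. Its 5p-arm reads were filed as precursor matches and so counted with the major strand, 48 of them, led by gctggtttcatatggtggtttaga with 21 reads, which starts upstream of the rno-miR-29b-1-5p form printed above. By alignment to the hairpins miR-29b had 1381 reads on the 3p arm, 96 on the 5p arm and 14 in the loop, and 4.43% of the reads on its major strand were not 3p. The 3p arm then outnumbered the 5p arm 16.0 ± 7.00 times in miR-29b, beside 683 ± 240 times in miR-29a and 45.9 ± 18.7 times in miR-29c. The layers were not compared on this basis.

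Between endocardium and epicardium, no member passed the test. Differences were fitted by limma on log2(RPM + 1), which understates the change of rare strands, with Benjamini-Hochberg adjustment over 226 features (a feature is the major or minor strand of 1 rat microRNA). At an adjusted p under 0.05 limma called 0 of these 226 (0%) and 0 of the 6 family strands. At an unadjusted p under 0.05 it called 9 features (3.98%), none of the family, and edgeR and DESeq2 on the recovered reads also called 0 features after adjustment. The endocardium minus epicardium difference was -0.28 ± 0.42 (log2, SE) for miR-29a, -0.24 ± 0.36 for miR-29c and -0.08 ± 0.37 for miR-29b, each with an adjusted p of 0.999 by limma. The median difference over all features was 0.02.

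The minor strand miR-29c* had the largest difference of the family between these layers. It was higher in the endocardium of 3 of 3 hearts, by 0.73 ± 0.35 on the log2 scale, with an unadjusted p of 0.069 and an adjusted p of 0.961 by limma. Without the endocardium of heart 6 the difference was 0.40, the lowest with any library left out. Of all 226 features, 10.2% were higher in the endocardium in 3 of 3 hearts and 9.29% had groups that did not overlap. miR-29a* differed by -0.15 ± 0.39 and miR-29b* by 0.56 ± 0.58.

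The midmyocardium and the epicardium were likewise not separated by any member. limma called 0 of 225 features (0%) and 0 of the 5 family strands tested, against 18 features (8%) at an unadjusted p under 0.05, none of the family. edgeR called 0 features after adjustment and DESeq2 called 1, which was not a member. Midmyocardium minus epicardium, miR-29a differed by 0.21 ± 0.37 (log2, SE; adjusted p 0.922), miR-29b by 0.03 ± 0.31 and miR-29c by 0.03 ± 0.29 (adjusted p 0.968 for both). The minor strand miR-29c* was again higher in 3 of 3 hearts, as were 15.1% of all features, by 0.43 ± 0.26 (adjusted p 0.766), and miR-29a* differed by -0.38 ± 0.29. The groups of 12.4% of all features did not overlap, and those of 0 of the 5 strands. miR-29b* had fewer than 10 reads in these libraries and was not tested.

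Between midmyocardium and endocardium, miR-29a was higher in the midmyocardium of 3 of 3 hearts by 0.49 ± 0.30 (log2, SE), with an unadjusted p of 0.14 and an adjusted p of 0.830 by limma. Without the endocardium of heart 7 the difference was 0.22, the lowest with any library left out. Of the 224 features tested, 14.7% were higher in the midmyocardium of 3 of 3 hearts and 9.82% had groups that did not overlap. limma called 0 of the 224 (0%) and 0 of the 6 family strands, with 9 features (4.02%) at an unadjusted p under 0.05, none of the family. edgeR and DESeq2 called 0 features after adjustment. miR-29c differed by 0.26 ± 0.32 and miR-29b by 0.11 ± 0.32. The minor strands miR-29a*, miR-29b* and miR-29c* were on the other side, at -0.23 ± 0.36, -0.43 ± 0.52 and -0.31 ± 0.34.

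Hearts did not separate the family at the level of whole microRNAs either. The F test of limma over hearts, with layer as a covariate, called 0 of 228 features (0%), against 28 at an unadjusted p under 0.05 and 7 by edgeR after adjustment. The family strand nearest to the threshold was miR-29b*, with an adjusted p of 0.463, and those of miR-29a, miR-29b and miR-29c were 0.974, 0.808 and 0.956. This p rests on the spread among the 3 pieces of each heart. Mean levels of miR-29a were 7468 ± 152 RPM in heart 6 (SD, n = 3 layers), 7810 ± 3694 in heart 7 and 7077 ± 2739 in heart 8, so the hearts differed mainly in how far their layers were spread.

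Compared with the other microRNAs, miR-29a was among the more variable. Its highest library had 2.83 times the level of its lowest, which ranked 20th of 122 features with enough reads, whose median ratio was 2.01. The ratio was 2.32 for miR-29c and 2.16 for miR-29b, at ranks 37 and 49. The microRNAs whose log2 levels followed miR-29a most closely were miR-126, an endothelial microRNA (Pearson r = 0.94), miR-361 (r = 0.91) and miR-133a* (r = 0.90), among 119 features with a median r of 0.11. For miR-29c they were miR-28 (r = 0.89), miR-107 (r = 0.81) and miR-126 (r = 0.79), and miR-29a and miR-29c followed each other with r = 0.71. These values describe 9 libraries that share 3 hearts and the annotated total, and they carry no test. The level of miR-126 was 4185 to 8274 RPM in the epicardium, 6187 to 6377 in the midmyocardium and 3285 to 5646 in the endocardium, and its part in the levels of the family was not tested.

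A wider list of 28 microRNAs linked to cardiac fibrosis gave the setting for the family. Under rat entries, reads were found for 26 of them, and 25 had enough to be tested. Reads filed under entries of other species were not counted here. limma called 0 of the 25 in each of the 3 layer comparisons. At an unadjusted p under 0.05 it called 1 between midmyocardium and epicardium, beside 8% of all features, and 0 in the other comparisons. Endocardium minus epicardium, the median log2 difference of the 25 was 0.04 beside 0.02 for all features. Midmyocardium minus epicardium, the median was 0.21 beside 0.05 for all features, and midmyocardium minus endocardium it was 0.12 beside 0.003.

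Some of the listed microRNAs had far more reads than the family. miR-133a, a muscle microRNA that restrains connective tissue growth factor, had a mean of 89555 ± 25187 RPM (SD, n = 9), and miR-30c, which targets the same factor, had 18500.3 ± 4587. miR-21, known to rise in fibroblasts of the failing heart, had 2727 ± 377 RPM and lay between miR-29a and miR-29c. miR-101a had 5550.1 ± 1638 RPM, miR-199a 2185 ± 505 and miR-214, from the same transcript as a miR-199a gene, 147 ± 37.6. In reads, miR-29a thus exceeded miR-21, miR-101a, miR-199a and miR-214 in the mean over libraries. These too are different sequences whose capture in the library was not measured.

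The reads of the members were then compared by their ends, since the 3 share a seed but not their isomiRs. Frequent sequences of each are shown with the seed bases of the read itself, its bases 2 to 8, in capitals. The third of miR-29b by reads has an added tail and is shown with the tails.
miR-29a, 1 nt short at the 3′ end: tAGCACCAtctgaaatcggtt
miR-29a, mature: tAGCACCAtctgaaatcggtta
miR-29a, 2 nts short: tAGCACCAtctgaaatcggt
miR-29a, 1 nt longer at the 5′ and 1 nt short at the 3′ end: cTAGCACCatctgaaatcggtt
miR-29b, mature: tAGCACCAtttgaaatcagtgtt
miR-29b, 1 nt short: tAGCACCAtttgaaatcagtgt
miR-29b, 1 nt longer at the 5′ and 3 nts short at the 3′ end: cTAGCACCatttgaaatcagt
miR-29c, mature: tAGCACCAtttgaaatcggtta
miR-29c, 1 nt short: tAGCACCAtttgaaatcggtt
miR-29c, 2 nts short: tAGCACCAtttgaaatcggt

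In miR-29a the shorter form outnumbered the annotated one, with 1963 ± 692 RPM (SD, n = 9) beside 1788 ± 686 for the mature sequence and 890 ± 191 for the form 2 nts short. In miR-29b the mature sequence came first with 60.8 ± 22.7 RPM, and in miR-29c it also came first with 235 ± 74.3 RPM, ahead of 152 ± 39.0 for the form 1 nt short and 85.8 ± 26.5 for the form 2 nts short. As a share of the 3p reads, the exact mature sequence made up 23.4 ± 2.21% of miR-29a, 33.7 ± 11.9% of miR-29b and 27.8 ± 2.81% of miR-29c. The share was lower for miR-29a than for miR-29c in 9 of 9 libraries. The exact permutation test that swaps the members within libraries gave p = 0.0039, the smallest it can give, and 0.0073 after adjustment over 15 comparisons between members. Swapped by heart, the design cannot go below 0.25, because 3 libraries share each heart. For the 104 features with at least 50 reads in every library the median share was 30.3%. That median was counted on only part of the reads of some features, for example on 76 reads of miR-148b over the 9 libraries. On the same count miR-29a had 23.8% and miR-29c 28.3%.

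The 5′ end set the members apart most clearly. Reads that began 1 nt earlier than annotated, with a C that is encoded in all 4 hairpins, made up 9.35 ± 0.97% of miR-29a (SD, n = 9; range 7.76 to 11.1%) and 21.8 ± 4.49% of miR-29b (11.9 to 26.5%). In miR-29c they made up 0.22 ± 0.20% (0 to 0.64%). The ranges of the 3 members did not overlap, and each pair differed in the same direction in 9 of 9 libraries. The two-sided exact permutation test that swaps within libraries gave p = 0.0039 (adjusted 0.0073) for each pair. Swapped by heart it gave 0.25, the lowest that 3 hearts allow. The earlier start moves the seed by 1 base, as the capitals in the sequences with the leading c show. Among the 104 features the median share of reads with a longer 5′ end was 0.141%, on the partial count given above. On that count miR-29a, at 9.50%, ranked 11th and miR-29c, at 0.22%, ranked 45th. The median and ranks hold for the counted reads only. miR-29b had too few reads in the midmyocardium of heart 6 to be ranked.

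The 3′ ends differed as well. The templated part, the stretch that matches the hairpin, stopped short of the annotated end in 63.4 ± 2.79% of miR-29a reads, 63.8 ± 13% of miR-29b reads and 50.6 ± 2.99% of miR-29c reads. It was more often short in miR-29a than in miR-29c in 9 of 9 libraries (exact permutation p = 0.0039, adjusted 0.0073). Swapped by heart, the same test gave 0.25, the lowest that 3 hearts allow. Among the short stops, the most frequent in miR-29a was 1 nt short, at 38.5%. In miR-29b it was 3 nts short, at 27.8% (11.9 to 42.0% between libraries). That stop took 6.24% in miR-29a and 12.9% in miR-29c. The annotated end was kept by 33.2%, 35.3% and 45.6% of the reads of miR-29a, miR-29b and miR-29c. An A that follows the form 1 nt short equals the template in miR-29a and miR-29c and could not be told from it.

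**Figure D2:**
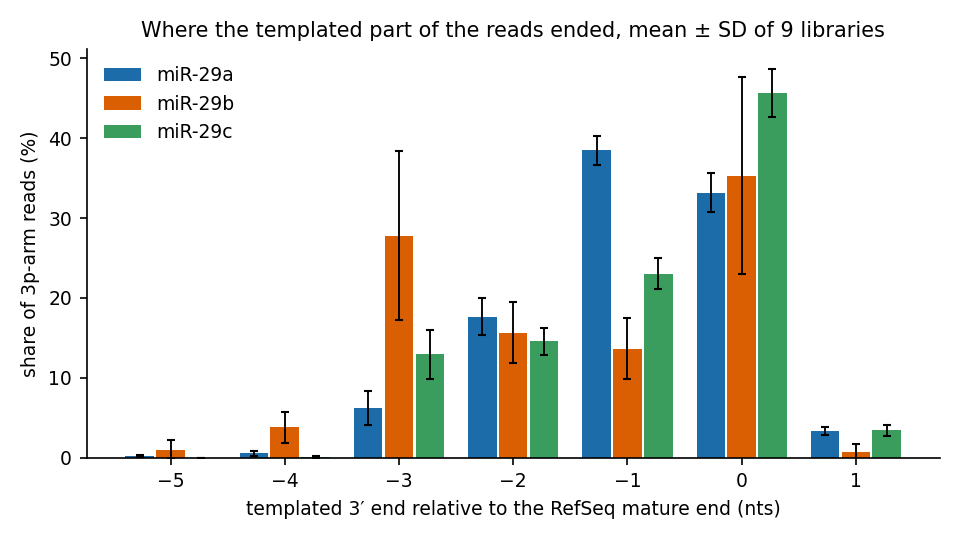
Share of the 3p-arm reads of each member (vertical axis, %) by where their templated part ended, in nts from the annotated mature end (horizontal axis, 0 being the annotated end), as mean ± SD of 9 libraries. miR-29a has its highest bar at -1, miR-29c at 0, and miR-29b has tall bars at both 0 and -3, each with a wide SD.

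Added bases that do not match the hairpin were most frequent in miR-29c. These sequences carry such a tail, shown in capitals, and are among the most frequent of each member.
miR-29a, A added to the mature end: tagcaccatctgaaatcggttaA
miR-29c, A added to the mature end: tagcaccatttgaaatcggttaA
miR-29c, 3 nts short with 1 A: tagcaccatttgaaatcggA
miR-29c, 3 nts short with 3 A: tagcaccatttgaaatcggAAA
miR-29b, 3 nts short with CC: tagcaccatttgaaatcagtCC

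An untemplated tail was found on 36.8 ± 3.10% of miR-29c reads (SD, n = 9), 22.4 ± 2.26% of miR-29a reads and 20.8 ± 13.8% of miR-29b reads. miR-29c exceeded miR-29a in 9 of 9 libraries (exact permutation p = 0.0039, adjusted 0.0073), whereas miR-29a and miR-29b, with p = 0.695, could not be told apart. Tails of A alone made up 22.6 ± 2.17% of miR-29c, 10.2 ± 1.68% of miR-29a and 7.16 ± 4.34% of miR-29b. Here miR-29c again stood above each of the others in 9 of 9 libraries (exact permutation p = 0.0039, adjusted 0.0073). Swapped by heart, these comparisons of miR-29c gave 0.25 in the same test, the lowest that 3 hearts allow. The tails of miR-29b ranged from 2.38% to 41.4% between libraries, far more widely than those of its relatives.

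**Figure D3:**
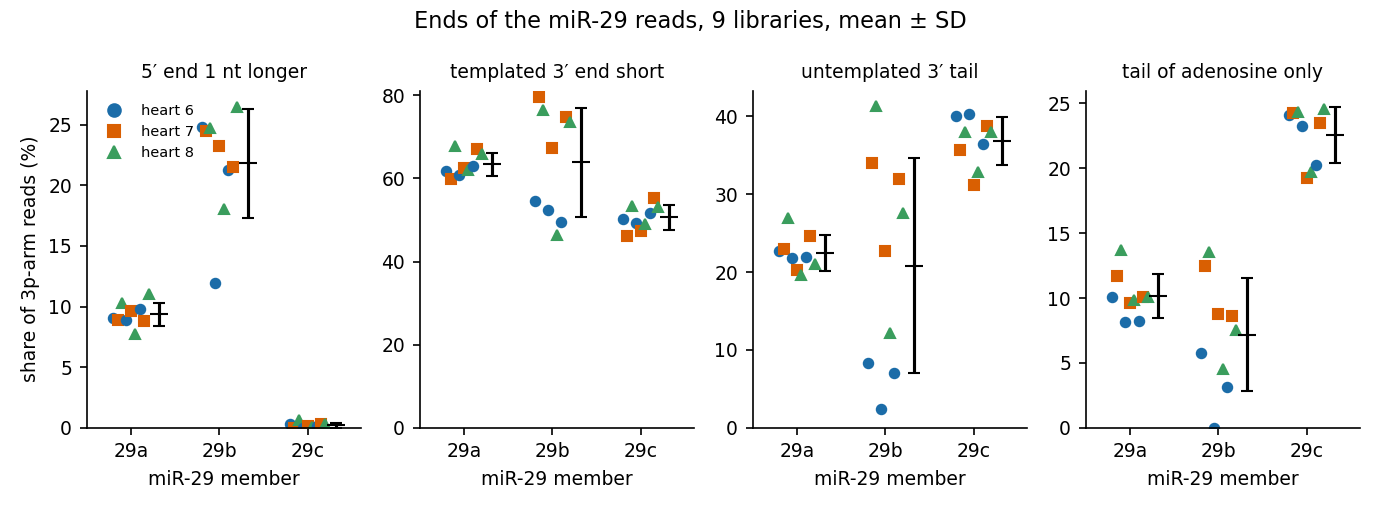
Shares of 3p-arm reads (vertical axes, %, each from 0) that start 1 nt early, stop short of the annotated end, carry an untemplated tail or carry a tail of adenosine only, by member, with 1 point per library and bars for the mean ± SD of 9 libraries. The 5′ shares of 29a, 29b and 29c do not overlap, and the tail shares of 29b are low in the 3 libraries of heart 6.

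The minor strands also left their annotated ends. The reads named mir-29a* were mostly the annotated form actgatttcttttggtgttcag, with 26 of 82 reads, and actgatttcttttggtgttcaga, with 20. The reads named miR-29b* were all filed under mir-29b-2, the one miR-29b entry with a * form, and were led by ctggtttcacatggtggcttaga and ctggtttcacatggtggcttagat with 15 reads each, while the annotated form had 2. For miR-29c* the leading sequence was accgatttctcctggtgttcagT, whose last base is untemplated, with 39 of 137 reads, followed by accgatttctcctggtgttcaga with 27. Both begin 2 bases after the annotated start, and the annotated form itself had 3 reads. The most frequent miR-29c* reads therefore did not carry the seed given for rno-miR-29c-5p above.

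No end share of a member was called between the layers, but the permutation test given below could not have called any. For the exact mature share, limma on the empirical logit called 1 of 104 features (0.962%), which was not a member. At an unadjusted p under 0.05 there were 6 (5.77%), and 0 of the 2 members with enough reads. These members, miR-29a and miR-29c, each had an adjusted p of 0.986 between endocardium and epicardium. In miR-29c the share was lower in the endocardium, at 25.3% beside 29.3% in the epicardium, with no overlap of the libraries, as in 9.62% of the 104 features. The exact permutation test of 3 against 3 libraries cannot go below p = 0.10, nor the swap within 3 hearts below 0.25. Over 54 comparisons between layers, of end shares and of each member's share of the family, 10 reached that p of 0.10, with an adjusted p of 0.54. Among them were the family shares of miR-29a and miR-29c between midmyocardium and endocardium. The rest were end shares whose layers did not overlap. One was the miR-29b reads that began 1 nt early, at 17.7% in the midmyocardium and 24.7% in the epicardium. Another was the untemplated tails of miR-29a, at 20.6% and 24.2% in the same layers.

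At the level of single sequences, those with a mean of at least 100 RPM in either layer were compared between endocardium and epicardium. limma called 0 of 562 sequences (0%), 8 of them (1.42%) at an unadjusted p under 0.05, and 0 of the 15 that belonged to the family either way. The 15 differences ran from -0.72 to 0.13 on the log2 scale, and 13 were negative. Their median was -0.27, beside 0.003 for all 562 sequences. Most of the 15 were forms of miR-29a, so their signs are not independent of one another. The one with the lowest unadjusted p, 0.095, was a miR-29a form 3 nts short with an AAA tail, at -0.72 ± 0.38 (SE; adjusted p 0.998).

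A comparison of hearts on single sequences was added after the values had been seen. Of 2126 sequences with a mean of at least 10 RPM, the F test of limma called 56 (2.63%), and of the 56 sequences of the family it called 2 (3.57%), a share near that background. Over all sequences 54 of the 56 called were higher in both hearts 7 and 8 than in heart 6, and 37 belonged to miR-99, miR-100 or miR-125. The libraries of heart 6 thus stood apart in sequences of other microRNAs too. Whole levels of some of these were also higher in hearts 7 and 8 than in heart 6. The log2 differences were 2.38 and 2.31 for miR-99b and 2.17 and 2.25 for miR-100 (limma adjusted p 0.062 for both). Whether their forms differed apart from their levels was not tested.

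The first of the 2 was the miR-29b form with the CC tail printed above. It had 1, 34 and 33 reads in the epicardium of hearts 6, 7 and 8, 0, 15 and 9 in the midmyocardium and 0, 23 and 24 in the endocardium. Heart 6 was at or near 0 in all 3 layers, and the other hearts lay above it in each. Heart 7 exceeded heart 6 by 4.31 and heart 8 by 4.14 on the log2(RPM + 1) scale, with an adjusted p of 0.0041 by limma and 0.0093 by edgeR. Without the epicardium of heart 6 0 of all sequences were called by limma and the adjusted p of this one was 0.070, while the differences stayed at 4.28 and 4.11 with an unadjusted p of 0.000102. As a share of miR-29b reads the form made up 0.83% (1 of 121), 0% (0 of 42) and 0% (0 of 127) in the epicardium, midmyocardium and endocardium of heart 6, with 95% Wilson upper bounds of 4.53%, 8.38% and 2.94%.

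In heart 7 the same layers had 19.0%, 10.1% and 14.1% of miR-29b reads with the CC tail, and in heart 8 they had 24.1%, 4.05% and 14.1%. The midmyocardium was lowest in both hearts. Among 54802 miR-29a reads none had this tail, which allows a share of up to 0.00547%, and in miR-29c it made up 0.25 ± 0.14% (SD, n = 9). The tail replaces the last 3 annotated bases of miR-29b. The last 6 bases of mature miR-29b, AGTGTT, form a motif known for directing it to the nucleus. They were kept in full by 45.5%, 47.6% and 50.4% of the reads in heart 6, by 20.5%, 32.7% and 25.2% in heart 7 and by 23.5%, 53.6% and 26.5% in heart 8, in the order epicardium, midmyocardium, endocardium. The midmyocardium of heart 8 was as high as heart 6, and the other libraries of hearts 7 and 8 were lower.

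**Figure D4:**
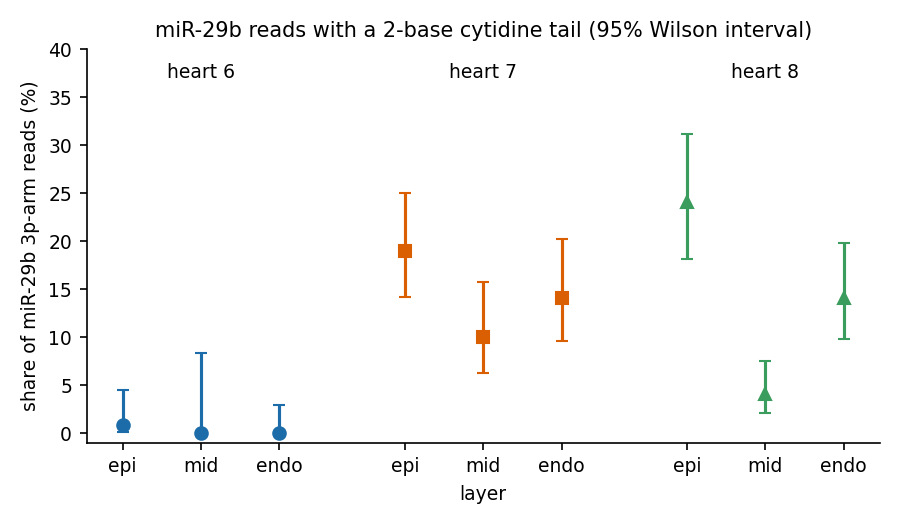
Share of miR-29b 3p-arm reads with the untemplated 2-base tail (vertical axis, %) in each layer of hearts 6, 7 and 8, with 95% Wilson intervals for counting error. The 3 libraries of heart 6 lie at 0 to 0.83%, and those of hearts 7 and 8 between 4.05% and 24.1%.

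The second was a miR-29a form 4 nts short of the annotated end, tagcaccatctgaaatcg. It had 5, 33 and 18 reads in the epicardium of hearts 6, 7 and 8, 0, 15 and 11 in the midmyocardium and 0, 9 and 7 in the endocardium. Heart 6 was lowest in each layer. Heart 7 exceeded it by 3.35 and heart 8 by 2.85 on the log2(RPM + 1) scale, with an adjusted p of 0.0097 by limma and 0.055 by edgeR. Without the epicardium of heart 6, the epicardium of heart 7 or the endocardium of heart 6 the adjusted p by limma was 0.070, 0.054 or 0.062, and heart 7 still exceeded heart 6 by 3.78, 3.34 or 3.34.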

How the data were processed

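Total RNA of the 9 tissue pieces was made into small RNA libraries and sequenced, and the authors trimmed, counted and annotated the reads in CLC Genomics Workbench 4.0 against miRBase 18. The deposited values for unique sequences are RPM of annotated reads. All 125689 non-zero RPM values came out as whole reads within 0.01, and a read count per sequence was recovered from these deposited values for edgeR 4.0.16 and DESeq2 1.42.0. The grouped table per microRNA, deposited by the authors as a normalised signal, leaves out precursor matches and was used only for checks. Sequences were summed by rat name stem and strand, with precursor matches kept on the major strand. RPM were tested as log2(RPM + 1) with limma 3.58.1 (R 4.3.3) for strands with at least 10 reads in 1 library, and adjusted by Benjamini-Hochberg. The rule for named sequences was the 3 highest per member and strand, the mature sequence and any past the threshold. Reads were aligned to RefSeq hairpins (GRCr8) by the longest exact prefix of at least 12 nts plus a tail of at most 4 nts. Exact permutation tests went through every arrangement with numpy 2.4.6, and Wilson intervals used scipy 1.17.1.

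Heart numbers pair the layers, since 1 animal gave all 3. Deviations of libraries from the same heart correlated by -0.31 to 0.67 (mean 0.24, against -0.11 for other hearts). Alternatives were other normalizations, pseudocounts, filters and tools, the heart as a block, and each library left out. The members and lists were chosen with earlier results of these data known.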

Additional observations from a re-analysis of the deposited data

Results flagged for a closer look

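Reads of the family were also found in rows that the rule by name did not take. Among the sequences without an annotation, 2 began with the first 17 bases of mature miR-29a and ended in untemplated bases, tagcaccatctgaaatcggaag and tagcaccatctgaaatcggaat. They had 113 reads over the 9 libraries, between 5 and 20 in each. A further 44 sequences of miR-29 were filed under entries of other species and had 74 reads, between 3 and 15 per library. Both lie outside the rows used for the levels, and the layers were not compared on them.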

How the results depend on the processing

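Over 364 alternative fits of the family strands by layer, none was called, and the lowest adjusted p was 0.55. In 25 the sign of a difference reversed. The minor strands rest on 2 to 26 reads per library. For the main results 6 of 107 alternative values with no library left out moved past their limits, as did 12 of 114 with a library or heart left out. The former are given next.

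With the heart as a replicate block no call on the family changed: the adjusted p by limma was 0.788 for miR-29c* (endocardium against epicardium) and 0.643 for miR-29a (midmyocardium against endocardium). Midmyocardium against epicardium had 1 feature called by DESeq2 and 1 by edgeR with the block. The hearts had 7 by edgeR and 5 with a pseudocount of 10. On the total of rat reads the midmyocardial level of miR-29a was 9909 RPM and that of miR-29c 1028 RPM.

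Midmyocardium minus epicardium, the difference of miR-29b turned to -0.022 with TMM, -0.011 with edgeR, -0.023 with edgeR and the block and -0.035 without heart 6. That of miR-29c turned to -0.025, -0.021, -0.025 and -0.057 with the same settings and to -0.0017 on the total of rat reads. Midmyocardium minus endocardium, miR-29a* turned to 0.29 without heart 6, a setting added after seeing the data. The cause was not tested.

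With single libraries left out, features called ranged from 0 to 3 between endocardium and epicardium (3 without the endocardium of heart 7), from 0 to 3 for hearts, from 0 to 58 for hearts on single sequences (0 without the epicardium of heart 6) and from 1 to 2 for the mature share. Endocardium minus epicardium then ranged from -0.65 to 0.045 for miR-29a, -0.52 to 0.12 for miR-29a*, -0.34 to 0.19 for miR-29b and -0.48 to 0.045 for miR-29c. The value of 0.045 was reached for miR-29a without the epicardium of heart 7 and for miR-29c without the endocardium of heart 7. Midmyocardium minus epicardium ranged from -0.16 to 0.54 for miR-29a, -0.19 to 0.27 for miR-29b and -0.17 to 0.23 for miR-29c. Midmyocardium minus endocardium ranged from -0.50 to 0.14 for miR-29a*, -0.16 to 0.37 for miR-29b, -0.020 to 0.50 for miR-29c, -0.50 to 0.030 for miR-29c* and 0.22 to 0.65 for miR-29a. The endocardium minus epicardium difference of miR-29c* ranged from 0.40 to 0.92.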
